A study of Rattus norvegicus with 4 samples.

Results

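The genes described here encode proteins of the myelin sheath. They are Mbp, Mobp, Mog, Mag, Cnp, Mal, Cldn11 and Pmp22, and they were taken as a list of central and peripheral myelin genes. The rule uses no measured value, but the list was chosen with earlier results of these data known. The 8 genes were represented by 11 probes, of 8927 named genes and 41012 non-control probes on the array. Mbp, Mobp and Mog had 2 probes each and the other 5 genes had 1 each. Expression was measured on 4 rat arrays, 1 for each of 4 cell samples of the strain labelled fisher 344. The samples were neurons derived from olfactory bulb (OB) neural stem cells, neurons derived from hippocampal (HPC) neural stem cells, the OB stem cells themselves, and the HPC stem cells themselves. The series title places them as adult progenitors studied for insulin biosynthesis. Each array held total RNA mixed from 3 independent experiments. No spread between cultures can therefore be given for any value, and no array has a replicate.

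Myelin is the stacked membrane that oligodendrocytes of the brain and spinal cord, and Schwann cells of peripheral nerve, wrap around axons. Its proteins fall into those that hold the compact layers together, those that sit on the surface and contact the axon or the extracellular space, and those of the uncompacted cytoplasmic channels and of the junctions between turns. Neural stem cells of the adult brain can form oligodendrocytes as well as neurons and astrocytes, and the outer layer of the olfactory bulb holds ensheathing glia, which share many markers with Schwann cells.

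The arrays were single-colour Agilent arrays, on which the intensity of a spot reports the labelled RNA bound to a probe. A level is given below as the probe's signal divided by the 75th percentile of all probes on its array, so a level of 1 is the signal of a fairly bright probe. Levels compare arrays for 1 probe and do not compare genes. Of all probes, 74.0% were well above background on the OB neuron array, 66.6% on the HPC neuron array, 63.8% on the OB stem cell array and 60.2% on the HPC stem cell array. Among 263 probes printed 10 times, the median SD of the log2 signal between spots lay between 0.0696 and 0.116 on the 4 arrays, which is the noise of spots only. The largest SD among these probes lay between 0.915 and 1.19. Each myelin probe was read from 1 spot, and the spot SD used below is the median one, so the noise of a faint probe may be larger. A difference of 1 log2 unit, or 2-fold, was called. Where a probe was dim on 1 of 2 arrays, that array was given the detection floor, its lowest signal well above background (the probe's own where that was higher), and such a difference is written "at least". Both neuron arrays lay on 1 slide and both stem cell arrays on another, so cell state and slide cannot be told apart, whereas OB and HPC arrays of the same state shared a slide.

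The arrays labelled neurons did not carry a general rise of neuron markers. Of 13 listed markers, 12 had a named probe, and the level summed over them, a sum weighted to the brightest probes (here Uchl1 and Mapt on the stem cell arrays), was 6.35 in OB neurons and 15.7 in HPC neurons, against 90.9 in OB stem cells and 137 in HPC stem cells. In a limma fit for cell state, described with the comparison of states, 2 of the 12 rose and 6 fell, where 19.4% and 12.1% of all genes tested did. Syt1, a synaptic vesicle protein, was not well above background on either array labelled neurons, and Mapt, encoding tau, fell (limma adjusted p = 0.00252). Snap25, a protein of synaptic vesicle fusion, rose by 3.08 log2 units in OB cells and 3.97 in HPC cells (limma adjusted p = 0.00194). Stmn2, a protein of growing neurites, rose by at least 5.01 log2 units in OB cells and at least 5.83 in HPC cells (limma adjusted p = 9.38e-05). "Neurons" below is therefore the name of an array's label.

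Read across the 4 arrays, the myelin genes did not move as a block. Cldn11 and Pmp22 rose in the neuron arrays, Cnp fell, Mag and Mal were detected on the OB neuron array alone, and Mbp was lowest there. Mog was higher on both neuron arrays by its brighter probe, and Mobp was low and uneven. In these cultures, more cells of a type and more RNA per cell cannot be told apart. The order of description follows the place of each protein in the sheath.

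Upstream sequences are shown for the genes on which the account turns: Pmp22 and Cldn11, which rose in the neuron arrays, Cnp, which fell, Mag, which was detected on the OB neuron array alone, and Mobp, whose window holds the most matches to a motif searched. Each is the 250 bases before the RefSeq gene start in assembly GRCr8, written 5′ to 3′ on the strand of the gene. Capitals mark matches to ACAAAG or, read from the other strand, CTTTGT, a core of sites bound by SOX factors such as Sox10, and to CAGCTG, an E-box of the kind bound by basic helix-loop-helix factors such as Olig1. Pmp22 lies at chr10:48294682-48294931 (plus strand), Cldn11 at chr2:114149540-114149789 (minus strand), Cnp at chr10:86011254-86011503 (plus strand), Mag at chr1:95291045-95291294 (minus strand) and Mobp at chr8:128746982-128747231 (plus strand).
Pmp22: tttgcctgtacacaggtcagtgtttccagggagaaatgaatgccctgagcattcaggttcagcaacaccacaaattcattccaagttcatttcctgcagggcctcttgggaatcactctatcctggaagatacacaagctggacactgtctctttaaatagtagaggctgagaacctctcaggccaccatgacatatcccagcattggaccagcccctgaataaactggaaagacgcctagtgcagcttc
Cldn11: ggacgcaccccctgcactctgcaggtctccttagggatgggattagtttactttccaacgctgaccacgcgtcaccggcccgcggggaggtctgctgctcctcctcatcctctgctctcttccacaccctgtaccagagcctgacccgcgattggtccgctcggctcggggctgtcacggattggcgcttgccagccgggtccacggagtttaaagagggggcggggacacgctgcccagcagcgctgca
Cnp: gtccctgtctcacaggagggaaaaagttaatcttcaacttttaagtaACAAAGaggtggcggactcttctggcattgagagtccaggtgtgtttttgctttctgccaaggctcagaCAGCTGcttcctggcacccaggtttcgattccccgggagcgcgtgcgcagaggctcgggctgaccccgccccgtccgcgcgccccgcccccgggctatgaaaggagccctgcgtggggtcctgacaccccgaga
Mag: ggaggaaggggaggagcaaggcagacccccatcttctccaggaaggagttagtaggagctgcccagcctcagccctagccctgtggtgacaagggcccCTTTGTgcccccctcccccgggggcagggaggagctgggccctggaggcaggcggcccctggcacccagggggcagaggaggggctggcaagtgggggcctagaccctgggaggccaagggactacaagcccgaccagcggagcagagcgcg
Mobp: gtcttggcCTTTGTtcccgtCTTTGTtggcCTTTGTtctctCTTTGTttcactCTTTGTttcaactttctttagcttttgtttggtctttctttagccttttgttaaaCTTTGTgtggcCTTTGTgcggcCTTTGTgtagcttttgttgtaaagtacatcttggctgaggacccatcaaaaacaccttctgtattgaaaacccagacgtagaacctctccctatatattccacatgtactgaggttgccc
Windows were matched for 7 of the 8 genes, all but Mog. The 6 letters ACAAAG, on either strand, occurred in a window of 4 genes (Cnp, Mag, Mbp and Mobp), against 16.3% of 33469 promoters of the same length. The E-box CAGCTG occurred for 2 genes, Cnp and Mbp, against 12.0% of promoters, and TATAAA, searched on both strands, for none, against 12.9%. The motifs do not overlap each other. The Mobp window held 8 matches to CTTTGT within a run of similar repeats, and had the lowest GC content of the printed windows (41.6%). Base composition was 70.0% GC for Mag, 64.8% for Cldn11, 60.4% for Cnp and 48.0% for Pmp22, where the lower and upper quartiles of all promoters were 44.0% and 60.0%. A match is a description of these letters and not a binding site, and a gene without one may carry sites elsewhere.

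The first genes are those of compact central myelin. Mbp encodes myelin basic protein, which holds the cytoplasmic faces of the membrane together. Its brighter probe had a level of 0.111 in OB neurons and 0.241 in HPC neurons, against 0.258 in OB stem cells and 0.292 in HPC stem cells. The OB neuron array was the low one, and the other 3 lay close together: the gaps between HPC neurons and OB stem cells (0.10 log2) and between the stem cell arrays (0.17 log2) were within 2 times the combined spot SD of the arrays. The difference between neurons and stem cells was -1.21 log2 units, or 2.32-fold lower, in OB cells and -0.27 in HPC cells (0.10 when arrays were scaled to their spike-in spots). The second Mbp probe was dimmer, with levels of 0.0373 in OB neurons and 0.0700 in HPC neurons, against 0.0564 in OB stem cells and 0.0798 in HPC stem cells. It put OB neurons lowest as well, but its OB difference of -0.59 did not reach 2-fold.

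Mobp encodes a small basic protein of the same compact layers. Its brighter probe had a level of 0.0901 in OB neurons and 0.0646 in HPC neurons, against 0.0557 in OB stem cells and 0.115 in HPC stem cells. Neuron and stem cell arrays overlapped, since the 2 stem cell arrays were the highest and the lowest of the 4. The differences ran in opposite directions, 0.69 in OB cells and -0.83 in HPC cells, and neither reached 2-fold. The OB difference was 0.07 with quantile normalization, 0.16 with median scaling and 0.14 with spike-in scaling. These lay within 2 times the combined spot SD (0.28). The HPC difference lay between -1.34 and -0.46 over the alternatives. The second Mobp probe was well above background only on the OB neuron and HPC stem cell arrays, and its differences were in the same directions, at least 0.28 higher in OB neurons and at least 0.76 lower in HPC neurons than in their stem cells.

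Next come the surface proteins. Mog encodes myelin oligodendrocyte glycoprotein, which lies on the outermost face of the sheath and is one of the last myelin proteins to appear as an oligodendrocyte matures. Its brighter probe had a level of 0.0904 in OB neurons and 0.0758 in HPC neurons, against 0.0380 in OB stem cells and 0.0438 in HPC stem cells. Both neuron arrays lay above both stem cell arrays, by 1.25 log2 units (2.38-fold) in OB cells and by 0.79 (1.73-fold) in HPC cells. The OB difference did not reach 2-fold with normexp (0.54), quantile normalization (0.58), median scaling (0.71) and spike-in scaling (0.70). These signals were faint, 7.70 times the lowest signal well above background on the OB neuron array and 1.86 times on the HPC stem cell array. The second Mog probe was well above background on the OB neuron array (level 0.0488) and the HPC stem cell array (0.0407) but not on the HPC neuron (0.0200) or OB stem cell (0.00395) array. It gave a difference of at least 1.61 in OB cells, in the direction of the first probe, and at least 1.03 lower in HPC neurons, the opposite direction, so the HPC difference of Mog depends on the probe. With normexp background correction it was -0.07 for the brighter probe.

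Mag encodes myelin-associated glycoprotein, an adhesion molecule of the innermost membrane that faces the axon in both central and peripheral myelin. It had a level of 0.304 in OB neurons and 0.00414 in HPC neurons, against 0.0168 in OB stem cells and 0.0116 in HPC stem cells. Only the OB neuron array was well above background, at 25.9 times the lowest such signal there. OB neurons were therefore at least 18.1-fold higher than OB stem cells (4.18 log2) and at least 15.7-fold higher than HPC neurons (3.97 log2). No difference can be given between HPC neurons and HPC stem cells, or between the stem cell arrays. With normexp background correction, which shrinks differences between faint signals, the differences were 2.06 from OB stem cells and 2.35 from HPC neurons, still past 2-fold but below these bounds.

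Cnp encodes the phosphodiesterase CNPase, which keeps the cytoplasmic channels of the sheath open and is made early in the oligodendrocyte lineage. It had a level of 7.75 in OB neurons and 6.98 in HPC neurons, against 16.4 in OB stem cells and 26.1 in HPC stem cells. Both stem cell arrays were high and both neuron arrays low, and the neuron arrays were within 2 times the combined spot SD of each other (0.15 log2). The difference was -1.08 (2.12-fold lower) in OB cells and -1.90 (3.74-fold lower) in HPC cells.

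Mal and Cldn11 encode tetraspan membrane proteins. Mal is a proteolipid that sorts membrane to the myelin and to the apical side of epithelia. It had a level of 0.0400 in OB neurons and 0.00462 in HPC neurons, against 0.00395 in OB stem cells and 0.00561 in HPC stem cells. The OB neuron signal was 3.40 times the lowest well above background on that array, and the other 3 arrays were not well above background. OB neurons were at least 2.50-fold higher than OB stem cells (1.32 log2) and at least 2.06-fold higher than HPC neurons (1.04 log2). These bounds fell under 2-fold with normexp (at least 0.59 and 0.53) and quantile normalization (at least 0.52 and 0.86). So did those with median scaling (at least 0.78 and 0.95) and spike-in scaling (at least 0.77 and 0.98). A bound under 2-fold does not show that the difference itself was. With no filter on dim probes, where dim signals are taken as they are, the differences were 3.34 and 3.11.

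Cldn11 encodes claudin 11, the tight junction protein of the radial component that seals turns of central myelin. It had a level of 0.299 in OB neurons and 0.125 in HPC neurons, against 0.0113 in OB stem cells and 0.00959 in HPC stem cells. Both neuron arrays were well above background and neither stem cell array was. Neurons were at least 18.7-fold higher in OB cells (4.23 log2) and at least 5.32-fold higher in HPC cells (2.41 log2). OB neurons exceeded HPC neurons by 1.26 log2 units, or 2.39-fold, a measured value with both arrays above background.

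Pmp22 encodes peripheral myelin protein 22, a major protein of compact Schwann cell myelin that many non-neural cells also make. It had a level of 34.9 in OB neurons and 15.8 in HPC neurons, against 6.28 in OB stem cells and 5.77 in HPC stem cells. Both neuron arrays lay above both stem cell arrays, and the stem cell arrays differed by 0.12 log2 units, within 2 times the combined spot SD, but by 0.98 with spike-in scaling. The difference was 2.47 (5.55-fold) in OB cells and 1.45 (2.73-fold) in HPC cells. The increase was larger in OB cells by 1.02 log2 units, a difference of differences that was not tested.

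**Figure D1:**
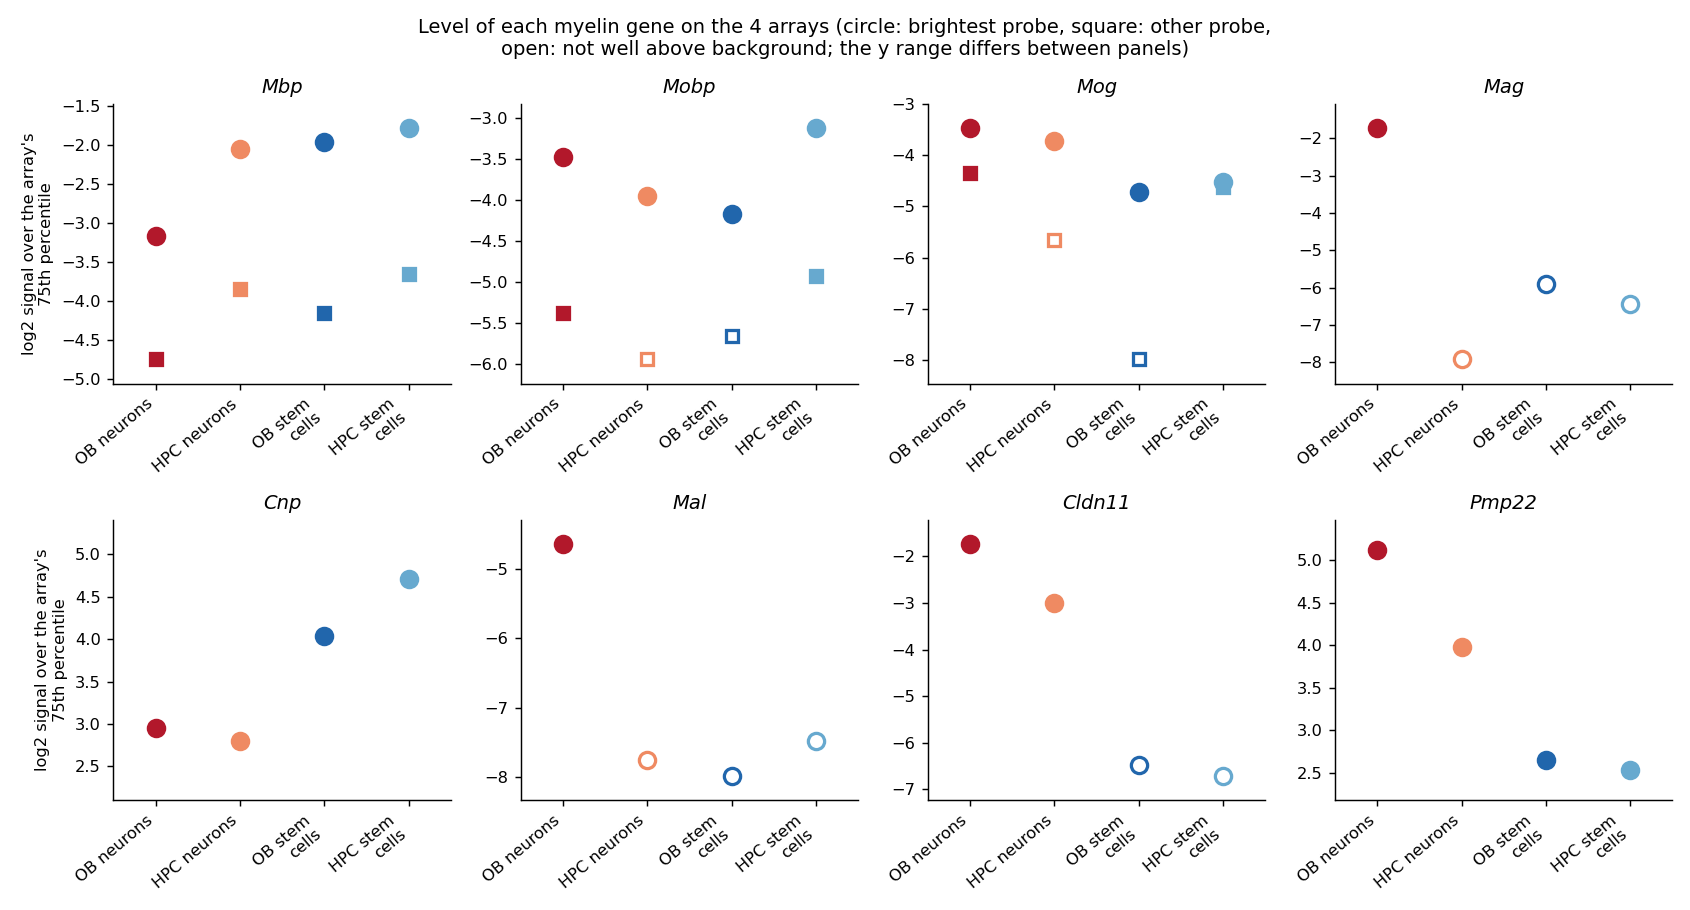
The log2 level of each of the 8 myelin genes (signal over the array's 75th percentile, y axis, with a range of its own in each panel) on the OB neuron, HPC neuron, OB stem cell and HPC stem cell arrays (x axis). Circles are the brighter or only probe, squares the second probe and open symbols probes not well above background. Pmp22 and Cldn11 are higher on both neuron arrays, Cnp is lower on both, and Mag and Mal are filled on the OB neuron array alone.

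The comparison of neurons with stem cells asked how each gene differed once the cells had been differentiated. In OB cells, 5 of the 8 genes were 2-fold or more higher in neurons (Mog, Mag, Mal, Cldn11 and Pmp22), where 26.9% of 7022 genes compared were. Mbp and Cnp, 2 of the 8, were 2-fold or more lower, where 20% of all genes were. The median log2 difference was 1.29 over the 8 genes and 0.09 over all genes. Mag, Mal and Cldn11 were not well above background on the OB stem cell array. They could therefore enter this count and median only as higher in neurons, and Cldn11 likewise in HPC cells. In HPC cells 6 of the 8 could be compared, since Mag and Mal were dim on both arrays. Cldn11 and Pmp22 were 2-fold or more higher, 2 of 6, where 21.8% of 6657 genes were. Cnp was 2-fold or more lower, 1 of 6, where 26.9% of all genes were. The median was 0.26 over the 6 genes and -0.32 over all genes. These comparisons hold different arrays but share both slides. Cldn11, Pmp22 and Cnp were past 2-fold in the same direction in both sources. Normexp background correction with an offset of 50 put the HPC difference of Cldn11 at 0.52 and the OB difference of Mbp at -0.76, both under 2-fold. The OB difference of Cnp was -0.90 with quantile normalization, and the HPC difference of Pmp22 was 0.99 with median scaling.

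**Figure D2:**
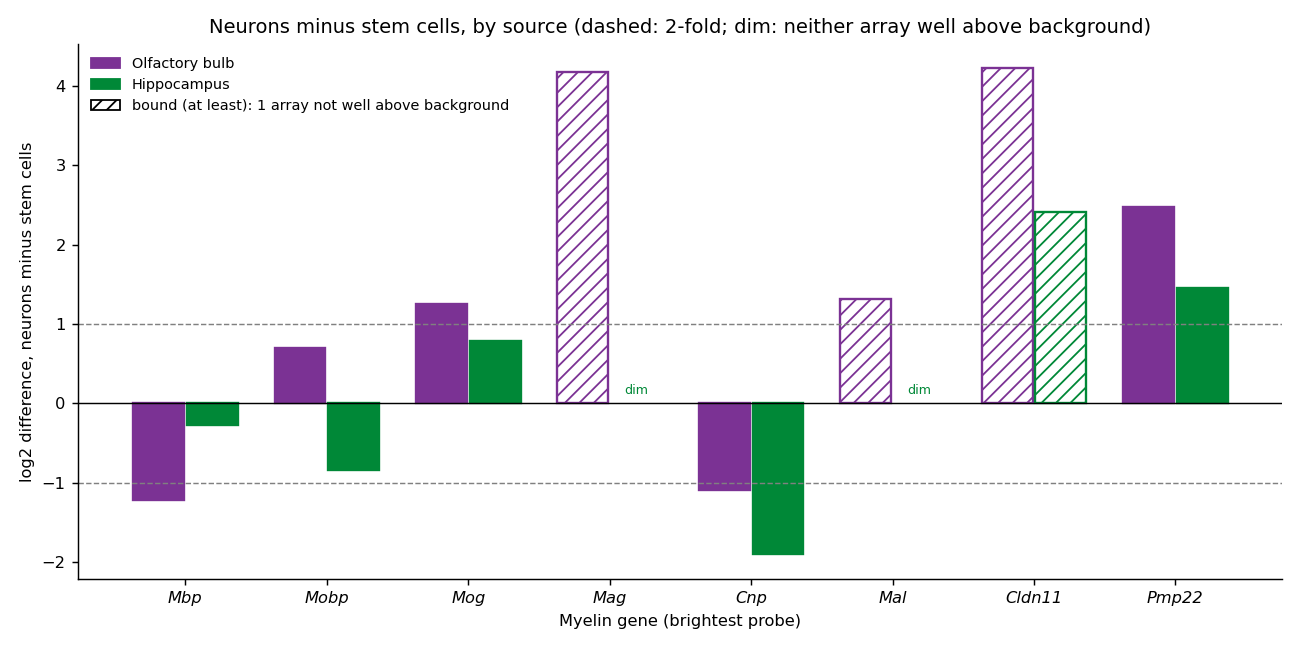
The log2 difference of neurons minus stem cells (y axis) for each myelin gene (x axis), for OB cells and HPC cells, with hatched bars for bounds and dashed lines at 2-fold. Cldn11 and Pmp22 are above the upper line and Cnp below the lower line in both sources, while Mobp has bars on opposite sides of 0.

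A limma fit over the 4 arrays, with cell state and cell source as additive terms, tested the state difference common to both sources across 7112 genes. It leaves 1 residual degree of freedom and takes any difference between the sources' changes as error, and a dim array enters at its own signal. Cldn11 rose in neurons (fitted log2 difference 4.22, SE 0.469, Benjamini-Hochberg adjusted p = 0.00097), a difference from stem cell arrays at dim signals. With normexp it was 1.11 (limma adjusted p = 0.0448). Pmp22 rose as well (1.96, SE 0.469, limma adjusted p = 0.0211), and Cnp fell (-1.49, SE 0.453, limma adjusted p = 0.0474). Of the 8 genes, 2 rose and 1 fell, where 19.4% of the genes tested rose and 12.1% fell. The call for Cnp was lost under quantile normalization (limma adjusted p = 0.0885) and with the mean over a gene's probes (0.0526), and that for Pmp22 with scaling to each array's median (0.0543). The fitted difference of Mog was 1.02 (SE 0.433, limma adjusted p = 0.119), and those of Mal (1.53, adjusted p = 0.202), Mbp (-0.74, 0.260), Mag (1.35, 0.425) and Mobp (-0.07, 0.929) did not pass either.

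In the levels themselves, both neuron arrays lay above both stem cell arrays for Mog, Cldn11 and Pmp22, 3 of the 8 genes, where 33.4% of 7112 genes did. They lay below for Mbp and Cnp, 2 of the 8, where 38.6% of all genes did. These orders are of the brighter probe, and the second probes of Mbp and of Mog overlapped. By detection, 5 of the 8 genes (Mbp, Mobp, Mog, Cnp and Pmp22) were well above background on all 4 arrays, as were 61.6% of 8927 genes. Cldn11 belonged to the 7.45% of genes detected on both neuron arrays and neither stem cell array. Mag and Mal belonged to the 4.03% detected on the OB neuron array alone.

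The second comparison set OB cells against HPC cells of the same state, within a slide. In neurons, Mag, Mal, Cldn11 and Pmp22 were 2-fold or more higher in OB cells, 4 of 8, where 7.66% of 6999 genes were. Mag and Mal were well above background on the OB neuron array alone, so they could enter this count and its median only as higher in OB cells. Mbp was 2-fold or more lower (-1.11 log2, 2.16-fold), 1 of 8, where 8% of all genes were. The median was 0.76 over the 8 genes and -0.02 over all genes. With normexp, Cldn11 (0.66) and Mbp (-0.63) did not reach 2-fold, and the bound of Mal (at least 0.53) fell under it. Differences of 0.48 for Mobp, 0.25 for Mog and 0.15 for Cnp did not reach 2-fold. In stem cells, 5 of the 8 genes could be compared, and 0 of these were 2-fold or more higher in OB cells, where 4.16% of 6028 genes were. Mobp was 2-fold or more lower in OB stem cells (-1.05), 1 of 5, where 6.98% of all genes were. It was -0.80 with normexp and -0.19 with spike-in scaling. The other 4 differed by between -0.67 (Cnp) and 0.12 (Pmp22). With spike-in scaling the differences of Cnp, Mbp and Mog turned positive, at 0.19, 0.69 and 0.66. The median was -0.20 over the 5 genes and -0.44 over all genes. Comparisons between sources and between states use the same 4 arrays, so the OB neuron array enters both the state and the source difference of Mag and Mal.

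**Figure D3:**
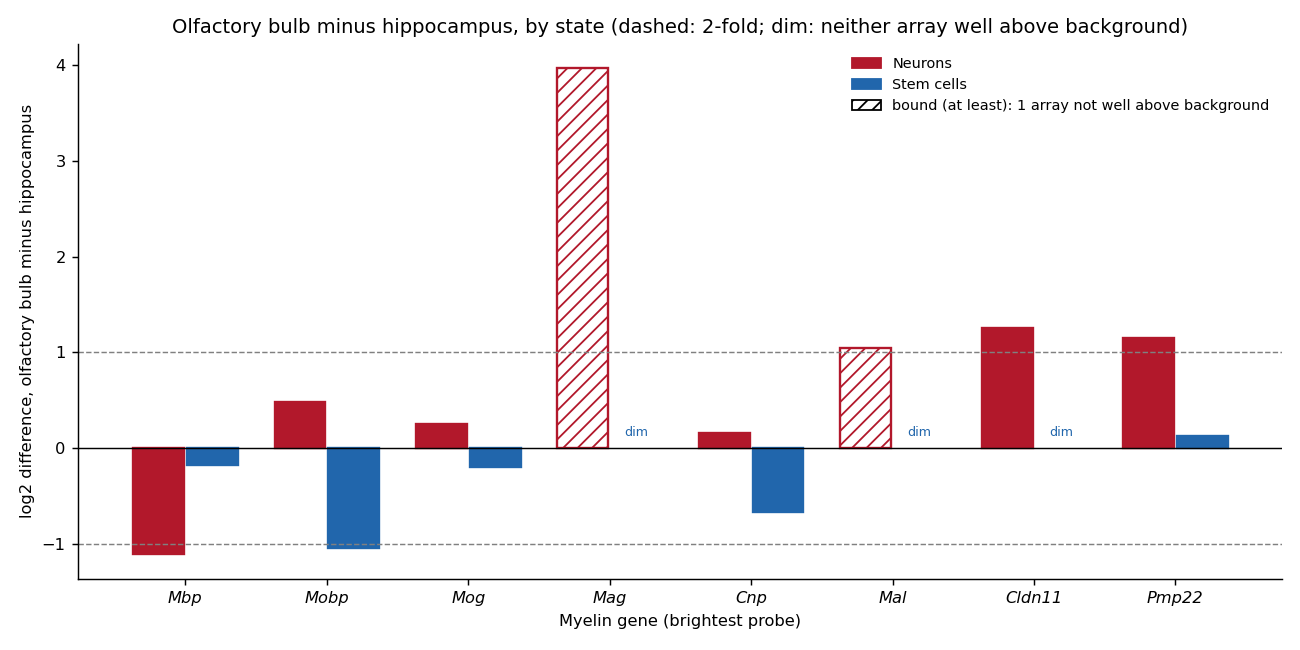
The log2 difference of OB minus HPC cells (y axis) for each myelin gene (x axis), for neurons and stem cells, with hatched bars for bounds and dashed lines at 2-fold. In neurons Mag, Mal, Cldn11 and Pmp22 are above the upper line and Mbp is below the lower one, and in stem cells the bar past a line is Mobp.

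For cell source, the limma fit called 0 of the 8 genes in either direction at an adjusted p of 0.05, and 0% of the 7112 genes tested in either direction. An unadjusted p under 0.05 was reached by 398 genes. Mag was the one of the 8 among them, with a fitted difference of 3.37 (SE 1.19, limma unadjusted p = 0.0276, adjusted p = 0.843). This fit averages the source difference over neurons and stem cells, and so cannot test a difference present in neurons alone.

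Among genes that act earlier in the oligodendrocyte lineage, more fell than rose. Of 16 genes listed for that lineage, 7 had a named probe, and by the limma fit for state 2 of 7 rose and 4 fell. Of all genes tested, 19.4% rose and 12.1% fell, and these shares stand beside each limma count of a list below. Olig1, a transcription factor of oligodendrocyte precursors, had a log2 level of 4.12 in OB neurons and 2.72 in HPC neurons, against 6.59 in OB stem cells and 7.02 in HPC stem cells, and fell (limma adjusted p = 0.00496). Sox10, which activates myelin genes in oligodendrocytes and Schwann cells, had a log2 level of 4.23 in OB neurons and 4.30 in HPC neurons, against 6.47 in OB stem cells and 7.22 in HPC stem cells, and fell (limma adjusted p = 0.00601). Bcas1, a protein of early myelinating oligodendrocytes, fell too, with differences of -6.15 in OB cells and -2.73 in HPC cells (limma adjusted p = 0.00693). Cspg4, the NG2 proteoglycan of oligodendrocyte precursors and also of pericytes, rose by 7.87 in OB cells and 5.05 in HPC cells (limma adjusted p = 0.000853). The level summed over the 7 genes was 80.3 in OB neurons and 45.8 in HPC neurons, against 240 in OB stem cells and 315 in HPC stem cells.

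Among other myelin membrane proteins, 15 of 17 listed genes had a named probe, 13 were tested, and 3 rose and 2 fell in the limma fit. The tetraspanin Cd82 rose by 3.55 in OB cells and 3.19 in HPC cells (limma adjusted p = 0.00177). Pllp, plasmolipin, fell, with differences of -5.59 in OB cells and -3.08 in HPC cells (limma adjusted p = 0.00344). Omg, an oligodendrocyte surface glycoprotein, fell too, by at least 5.50 log2 units in OB cells and with a difference of -1.78 in HPC cells (limma adjusted p = 0.0230). Opalin and Ermn, both of late oligodendrocytes, were not well above background on any of the 4 arrays. The list's median difference was 0.06 in OB cells and 0.31 in HPC cells, against 0.09 and -0.32 over all genes.

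Markers of mature oligodendrocytes were mostly higher on the neuron arrays: 10 of 14 listed genes had a named probe, 8 were tested, and 5 rose and 0 fell in the limma fit for state. Tf, transferrin, rose by 6.88 in OB cells and 2.52 in HPC cells (limma adjusted p = 0.0116), and Apod, a lipid-binding apolipoprotein, by 4.05 and 2.12 (limma adjusted p = 0.00787). Enpp2, autotaxin, rose by 3.18 and 1.75 (limma adjusted p = 0.0121), and Septin4, a septin, by 4.92 and 4.31 (limma adjusted p = 0.000488). The summed level was 316 in OB neurons and 146 in HPC neurons, against 56.2 in OB stem cells and 64.8 in HPC stem cells. Ndrg1, also listed, ran in opposite directions, with differences of 1.23 in OB cells and -1.84 in HPC cells. Klk6 and S1pr5 were not well above background on any array. Apod and Enpp2 are also known from fibroblasts, and Septin4 from astrocytes.

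**Figure D4:**
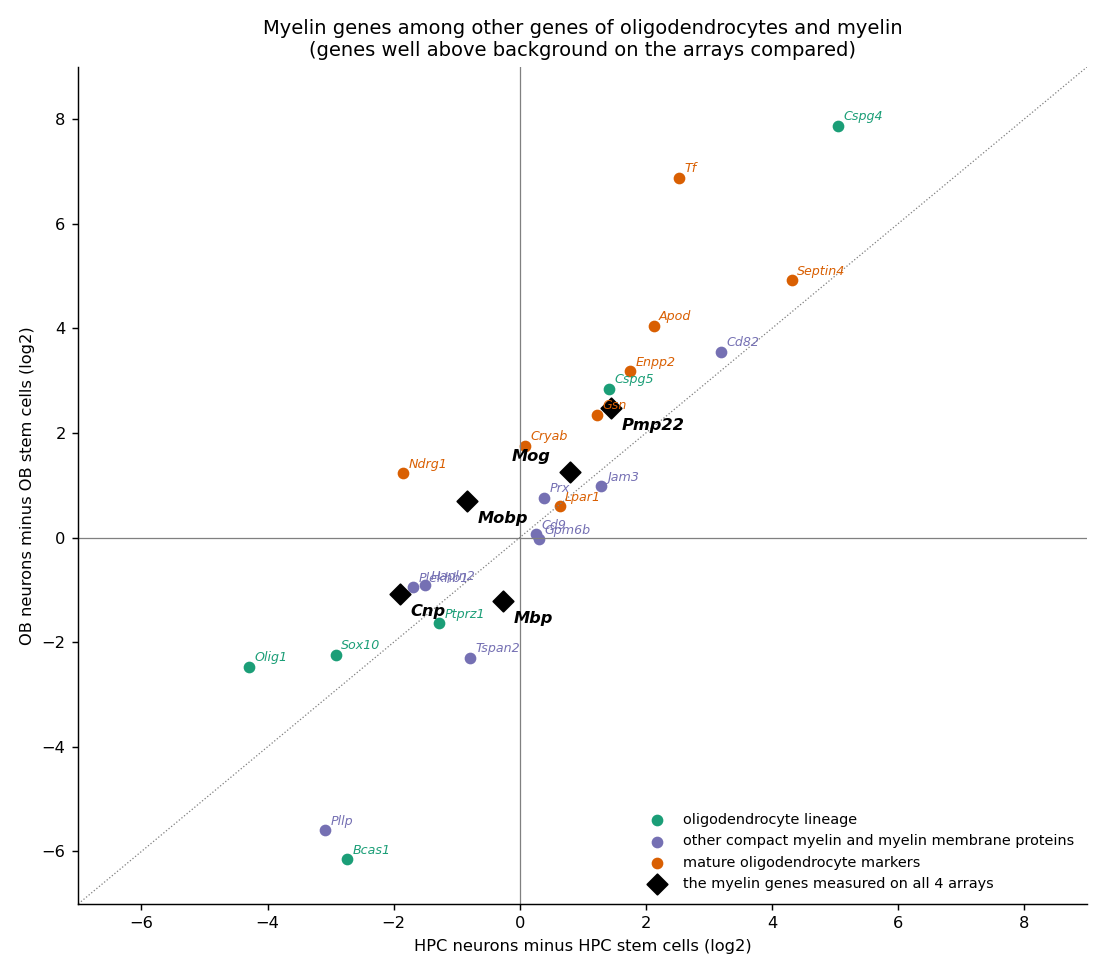
The log2 difference of OB neurons minus OB stem cells (y axis) against that of HPC neurons minus HPC stem cells (x axis), for the 5 myelin genes measured on all 4 arrays (black diamonds) and for the reported genes of 3 lists that were measured on the arrays compared. The dotted line marks equal differences. Pmp22 lies at 2.47 and 1.45, Cnp at -1.08 and -1.90, and Olig1, Sox10 and Bcas1 lie below 0 in both sources.

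Enzymes and lipid carriers of myelin were tested for 6 of 8 listed genes, of which 1 rose and 0 fell. Aspa, aspartoacylase, which frees acetate for myelin lipids, rose by 4.50 in OB cells and 1.75 in HPC cells (limma adjusted p = 0.0154), and was 2.09 higher in OB than in HPC neurons. Elovl1, an elongase of very long chain fatty acids, was 1.04 higher in OB neurons and differed by -0.04 in HPC cells. Proteins of the axon-glia junction and of glial gap junctions were tested for 6 of 8 genes, of which 1 rose and 3 fell. Cntn1, contactin 1, fell with differences of -6.52 in OB cells and -3.00 in HPC cells (limma adjusted p = 0.00578), as did Gjb1, connexin 32 of Schwann cells and oligodendrocytes, with -1.51 and -2.62 (limma adjusted p = 0.0185). Cntnap1, the partner of contactin 1 at the paranode, rose by at least 1.70 and at least 1.56 (limma adjusted p = 0.0119). In the list of claudin and MAL relatives, which includes Pmp22, 10 of 12 genes had a named probe, and 3 rose and 0 fell. Cldn9, a tight junction claudin, rose by 8.44 in OB cells and 6.47 in HPC cells (limma adjusted p = 0.000194).

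Peripheral and olfactory glia were covered by a list of 15 markers of Schwann and olfactory ensheathing cells, 13 of them with a named probe. In OB cells 8 of 13 were 2-fold or more higher in neurons and 3 lower, where 26.9% and 20% of all genes were. In HPC cells 3 were higher and 5 lower, where 21.8% and 26.9% of all genes were. In OB neurons 8 of 13 were 2-fold or more higher than in HPC neurons and 1 lower, where 7.66% and 8% of all genes were. The list's median difference was 1.19. Ngfr, the low-affinity neurotrophin receptor of non-myelinating glia, was 4.95 higher in OB than in HPC neurons. The adhesion molecule L1cam was 6.78 higher, and Gfra3, a receptor of the GDNF family, 4.71 higher. Sox10, on the same list, differed by -0.07, and Egr2, the 1 marker that was 2-fold or more lower, by -1.46. The summed level of the list was 194 in OB neurons and 84.2 in HPC neurons, against 139 in OB stem cells and 199 in HPC stem cells. Like the other summed levels, it is weighted to the brightest probes, here Npy and Fabp7 on the OB neuron array and Sox10 on the stem cell arrays. These values stand beside the higher Mag, Mal, Cldn11 and Pmp22 of OB neurons, and their part in that difference was not tested. The limma fit for state called 3 of the 13 higher and 3 lower.

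Markers of further cell types moved with cell state. All 7 fibroblast and pericyte markers with a named probe, of 11 listed, rose in neurons in the limma fit, and their summed level was 516 in OB neurons and 381 in HPC neurons, against 0.129 in OB stem cells and 0.104 in HPC stem cells. Col3a1, Dcn, Lum, Pdgfrb, Tagln and Thy1 were not well above background on either stem cell array. Of 10 astrocyte markers, 7 rose and 1 fell, with a summed level of 135 in OB neurons and 140 in HPC neurons, against 32.3 in OB stem cells and 42.3 in HPC stem cells. Of 10 microglia markers, 8 had a named probe and 6 were tested, of which 4 rose and 0 fell, with a summed level of 6.26 in OB neurons and 2.78 in HPC neurons, against 0.864 in OB stem cells and 0.858 in HPC stem cells. Itgam and Cx3cr1 were not well above background on any array. Of the 9 neural stem cell markers with a named probe, 3 rose and 3 fell. Pmp22 is also made by fibroblasts and epithelia and Cldn11 by cells of the meninges, and the part of such cells in their rise was not tested.

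Other genes had level patterns close to those of single myelin genes. Over the 5495 genes detected on all 4 arrays, likeness was measured as the root mean square distance over the 4 arrays after centring each gene on its mean log2 level. U2af1l4, a splicing factor gene, was nearest to Cnp at 0.00569 log2 units, followed by Igsf9b at 0.0250 and Akap1 at 0.0456. Ednra, an endothelin receptor, was nearest to Pmp22 at 0.0561, followed by Txnip at 0.112 and Cyth3 at 0.136. Adcy3, an adenylyl cyclase, was nearest to Mbp at 0.0627, before Whrn at 0.0699 and Sulf2 at 0.0782. Mog was nearest to Atl3 (0.0340), Dnase1l1 (0.0356) and Snap29 (0.0420), and Mobp to Or5aq1d (0.0223), Abhd16a (0.0550) and Or1f30 (0.0654), of which Or5aq1d and Or1f30 are olfactory receptor genes. Except for Txnip, Cyth3, Whrn and Sulf2, these distances were below the lowest median spot SD of the 4 arrays (0.0696). Their order is therefore not resolved from the noise of spots. Whether such matches are closer than those of other genes was not tested. Mag, Mal and Cldn11 were not searched because each was dim on 2 or more arrays.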

How the data were processed

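Total RNA of 4 pooled rat cell samples was measured on 4 single-colour Agilent arrays, 1 per group. The deposited scanner files hold the processed intensity of each spot. Agilent Feature Extraction 10.5.1.1, named in the submitters' processing notes, subtracted background and removed spatial trends, per the file headers, which record no normalization between arrays. The authors' table held the same intensity values (largest difference 0).

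Here the intensity was converted to log2, averaged over spots of a probe, and reduced by each array's 75th percentile over probes. Outlier flags removed 512 spots and left 40758 of 41012 probes. No spot was saturated. Probes were named by accession, without version, through the RefSeq gene table of GRCr8 (for names alone, since the headers give rn4 as the design's build). Of those kept, 10783 matched 1 symbol, 0 matched several and 29975 matched none, giving 8927 genes. The probe with the highest mean stood for a gene, and all probes of the myelin genes are described.

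With 1 array per group no single comparison was tested and no replicate error exists; the number of arrays limits precision. The one test was limma 3.58.1 in R 4.3.3 (lmFit and eBayes, state and source additive, Benjamini-Hochberg over 7112 genes well above background on at least 1 array). The fit was also run on simulated data. The changes planted there were larger than the fitted differences of Pmp22 and Cnp, so that run does not cover changes of their size. Because RNA of 3 experiments was mixed before labelling, the limma p-values measure no spread between cultures. They rest on 1 residual degree of freedom per gene and, more heavily, on a variance shared over genes (5.49 prior degrees of freedom). With normexp and with detection on all 4 arrays the prior was infinite, so a gene's own spread did not enter.

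The named genes were the 8 myelin genes, up to 4 genes per list by the largest absolute neuron minus stem cell difference, and 3 nearest genes per myelin gene detected on all 4 arrays. Syt1, Snap25, Egr2, Fabp7, Ndrg1 and marker genes not well above background on some arrays were named besides, after their values were seen. Some listed genes enter the counts and are not otherwise reported here. The members and lists were chosen with earlier results of these data known. Genes in a list without a named probe were not analysed here. The alternatives tried were the authors' table, averaging a gene's probes, 2 other filters on dim probes, scaling to the median or to 320 spike-in spots, normexp (offset 50) and quantile normalization. Normexp was planned on mean spot signals, and was run on median spot signals, the column used here. Sequences are RefSeq promoter windows of GRCr8. Python 3.11.15 and pandas 2.3.3 were used.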

Additional observations from a re-analysis of the deposited data

Results flagged for a closer look

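Mobp moved in opposite directions in the 2 sources, with a neuron minus stem cell difference of 0.69 log2 units in OB cells and -0.83 in HPC cells. The OB difference of Mobp was 0.07 with quantile normalization, 0.16 with median scaling and 0.14 with spike-in scaling. Its OB minus HPC difference was 0.48 in neurons and -1.05 in stem cells. The OB minus HPC difference of Mog was 0.25 in neurons and -0.20 in stem cells, and that of Cnp was 0.15 in neurons and -0.67 in stem cells. Each was singled out because its only array pairs moved opposite ways in the main processing. The stem cell difference of Mog was within 2 times the combined spot SD (0.33). With spike-in scaling the stem cell differences of Mog (0.66) and Cnp (0.19) were positive, as were their neuron differences. With 1 array per group, none of these differences between groups was tested.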

How the results depend on the processing

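No paired analysis was possible because each group has 1 array and so no replicate pairs; the source term of the limma fit already sets OB with OB and HPC with HPC arrays. In OB cells, the count of myelin genes 2-fold or more higher in neurons was 5 and became 3 with normexp, quantile normalization, median scaling or spike-in scaling, and 2 of the 5 genes detected on all 4 arrays. The count lower was 2 and became 1 with normexp, quantile normalization or the mean over a gene's probes. In HPC cells, the count higher was 2 and became 1 with normexp, median scaling or only genes detected on all 4 arrays, and 3 with spike-in scaling, and the count lower was 1 and became 2 with quantile normalization, median scaling or no filter. Between neurons of the 2 sources, the count higher in OB cells was 4 and became 2 with normexp and 1 with only genes detected on all 4 arrays, and the count lower was 1 and became 0 with normexp. The bound of Mal between neurons also fell under 2-fold with quantile normalization, median scaling or spike-in scaling. Between stem cells, the count lower was 1 and became 0 with normexp or spike-in scaling. In the limma fit for state, the count higher was 2 and became 1 with median scaling and with only genes detected on all 4 arrays, where Cldn11 was not tested. The count lower was 1 and became 0 with quantile normalization or the mean over a gene's probes. A count within 1.5 times its main value was taken as unchanged, so that 2 and 3 pass. Of the recomputed log2 differences of single myelin genes, 129 stayed within the combined spot SD of the main value and 80 moved. Pmp22 was higher in neurons under every alternative run, by 1.92 to 2.81 in OB cells and 0.99 to 1.84 in HPC cells, and Cnp was lower, with -1.64 to -0.90 and -2.36 to -1.39. The causes of these shifts were not tested, except that a filter for detection on all 4 arrays leaves out Mag, Mal and Cldn11.

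Over all genes, the median difference (OB states, HPC states, neurons between sources, stem cells between sources) was 0.09, -0.32, -0.02 and -0.44. Median scaling gave -0.48, -0.81, -0.12 and -0.46, and spike-in scaling -0.50, 0.06, -0.09 and 0.43. Of genes past 2-fold, 57.4% were higher in OB neurons than in OB stem cells, and 37.0% with median and 36.4% with spike-in scaling. For HPC cells the share was 44.8%, and 28.8% and 63.5% with these scalings, and for OB over HPC stem cells 37.4%, and 94.0% with spike-in scaling. In OB cells 1887 genes were higher, and 1069 with detection on all 4 arrays; 1402 were lower, and 2363 with median and 2405 with spike-in scaling. In HPC cells 1454 were higher, and 787 with detection on all 4 arrays; 1788 were lower, and 2855 with median and 1068 with spike-in scaling. Between neurons 536 were higher in OB cells, and 340 with normexp, 257 with detection on all 4 arrays and 812 with no filter; 560 were lower, and 331 with normexp and 302 with detection on all 4. Between stem cells 251 were higher in OB cells, and 134 with normexp and 1121 with spike-in scaling; 421 were lower, and 207 with normexp, 71 with spike-in scaling and 727 with no filter. The limma fit for state called 1383 genes higher, and 796 with detection on all 4 arrays, and 863 lower, and 1736 with median scaling. For source it called 0 genes, and 14 higher and 55 lower with normexp and 20 higher and 62 lower with detection on all 4 arrays, none of them myelin genes. The signals of Mog, Mal and Mobp were under 8 times the lowest signal well above background on every array.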
